A study of Mus musculus with 6 samples.

Results

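The 8 cyclin genes Ccnd1, Ccnd2, Ccnd3, Ccne1, Ccne2, Ccna2, Ccnb2 and Ccnf were followed in mouse liver with and without SV40 oncoproteins. Cyclins are the regulatory partners that switch on the cyclin-dependent kinases (CDKs). These 8 of 18193 genes named on the arrays were read from every probe set whose platform gene symbol was 1 of these names, 21 of 45137 probe sets that were not controls, with 17 on the 430A design and 4 on the 430B design of the Affymetrix mouse genome arrays. The data are 6 arrays, 1 of each design for each of 3 genotypes. The WT group had no transgene. LT mice carried ApoErtTA:TRE2-TAg and were induced to make the SV40 large T antigen (LT) and small t (st). 17kT mice, titled ApoErtTA:TRE2-TAg as well, were induced to make 17kT and st. 17kT, the product of another splicing of the same viral gene, keeps the site that holds retinoblastoma (pocket) proteins and lacks the p53-binding region. All 3 groups were male mice of hybrid B6SJL background, aged 32 to 37 days, and all, WT included, drank doxycycline at 25 micrograms/ml with 2.5% sucrose for 4 days. The title of the series calls the expression conditional and specific to liver. WT mice lacked the ApoErtTA transgene, so its effect and that of the viral proteins cannot be told apart in comparisons with WT. Both transgenic groups made st. The labels do not say whether livers were pooled, and the design text speaks of single measurements.

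In textbook accounts the cyclins act in turn. D-type cyclins, made in answer to growth signals, join CDK4 and CDK6 and start the phosphorylation of the pocket proteins, which frees E2F transcription factors. E2F then drives the genes of cyclins E and A, which carry cells through the start of DNA replication with CDK2. B-type cyclins with CDK1 open mitosis, and cyclin F is an F-box protein that directs ubiquitin ligase to its targets and does not activate a CDK. Hepatocytes of an adult liver rarely divide, and Ccnd1 is known for its rise in regenerating liver. Large T and 17kT bind the pocket proteins directly.

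Signals are on a linear scale and were brought to the same 2% trimmed mean on the arrays of a design. The median scaled signal of a design, 90.4 on 430A and 140.5 on 430B, served as a floor, and values below it were raised to it before log2 ratios were taken. A probe set was called higher or lower at a difference of at least 2-fold, 1 on the log2 scale. A fold given as "at least" belongs to a probe set whose dimmer array was at the floor, and a probe set at the floor on both arrays has no direction. A probe set at the floor on 1 array was measured through the other alone and could be called only in that array's direction. With 1 array per genotype and design there is no replicate check and no test, and no value below carries a replicate error. The technical spread of a log2 ratio, from 100 probe sets present on both designs, had an SD of 0.23 in LT/WT, 0.28 in 17kT/WT and 0.26 in LT/17kT. Between probe sets of the same gene the SD was 0.52, 0.49 and 0.43. The technical spread leaves out a shift between the designs. The median log2 ratio on 430A minus that on 430B was -0.25 in LT/WT, 0.19 in 17kT/WT and -0.36 in LT/17kT. Of the 100 probe sets, 98, 98 and 100 were above the floor on the arrays compared, so signals under the floor hardly enter this spread. Bulk RNA does not tell fewer cells of a type apart from less RNA per cell.

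Between 47.0% and 52.0% of probe sets lay above the floor on each array. All 8 hepatocyte markers on the 430A design, among them Alb, Cps1 and Hnf4a, were above the floor on each of the 3 arrays, with a summed signal of 113072 in WT, 80771 in LT and 70342 in 17kT. Of 9 such markers on both designs, 3 were lower by 2-fold in LT and 4 in 17kT, and 0 were higher. Of all genes measured, 9.01% were lower and 11.1% higher in LT against WT, and 8.64% and 9.97% in 17kT against WT. The ratio of 3' to 5' signal of the Gapdh control, which rises with broken or incompletely copied RNA, was 5.81 and 6.04 on the WT arrays and between 2.85 and 3.53 on the others. The same ratio of the Actb control did not set WT apart from LT. On 430A and 430B it was 2.57 and 2.29 in WT, 2.52 and 2.50 in LT, and 2.13 and 1.72 in 17kT. Both LT arrays, and no others, ran on fluidics station 2, so that the station cannot be told apart from the LT genotype. The 17kT signals were deposited with more decimals than those of WT and LT, and what else differed in their processing was not examined. Any such difference cannot be told apart from the 17kT genotype. The part of RNA quality in the differences from WT was not tested.

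Calls were counted apart for the D-type genes and for the later cyclins. In LT against WT, 7 of the 8 probe sets of Ccne1, Ccne2, Ccna2, Ccnb2 and Ccnf were higher, 0 were lower and 1 was not past the 2-fold rule. Of the 13 probe sets of the D-type genes, 0 were higher, 2 were lower, 5 were not past the rule and 6 lay at the floor on both arrays. Among all probe sets measured, 9.76% were higher and 8.54% lower. In 17kT against WT, 5 of the 8 probe sets of the later cyclins were higher. The 3 not past the rule were those of Ccne1 and Ccne2. Of 13 D-type probe sets, 3 were lower, 5 were not past it and 5 lay at the floor. Ccne1 on 430A, Ccne2 and Ccnf on 430B were under the floor in WT and could not be called lower. In LT, 1417420_at and 1417419_at of Ccnd1 and 1444323_at of Ccnd3 were under it and could not be called higher. The background there was 9.03% higher and 7.47% lower. The comparisons share the WT arrays, so they are not independent of each other.

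**Figure D1:**
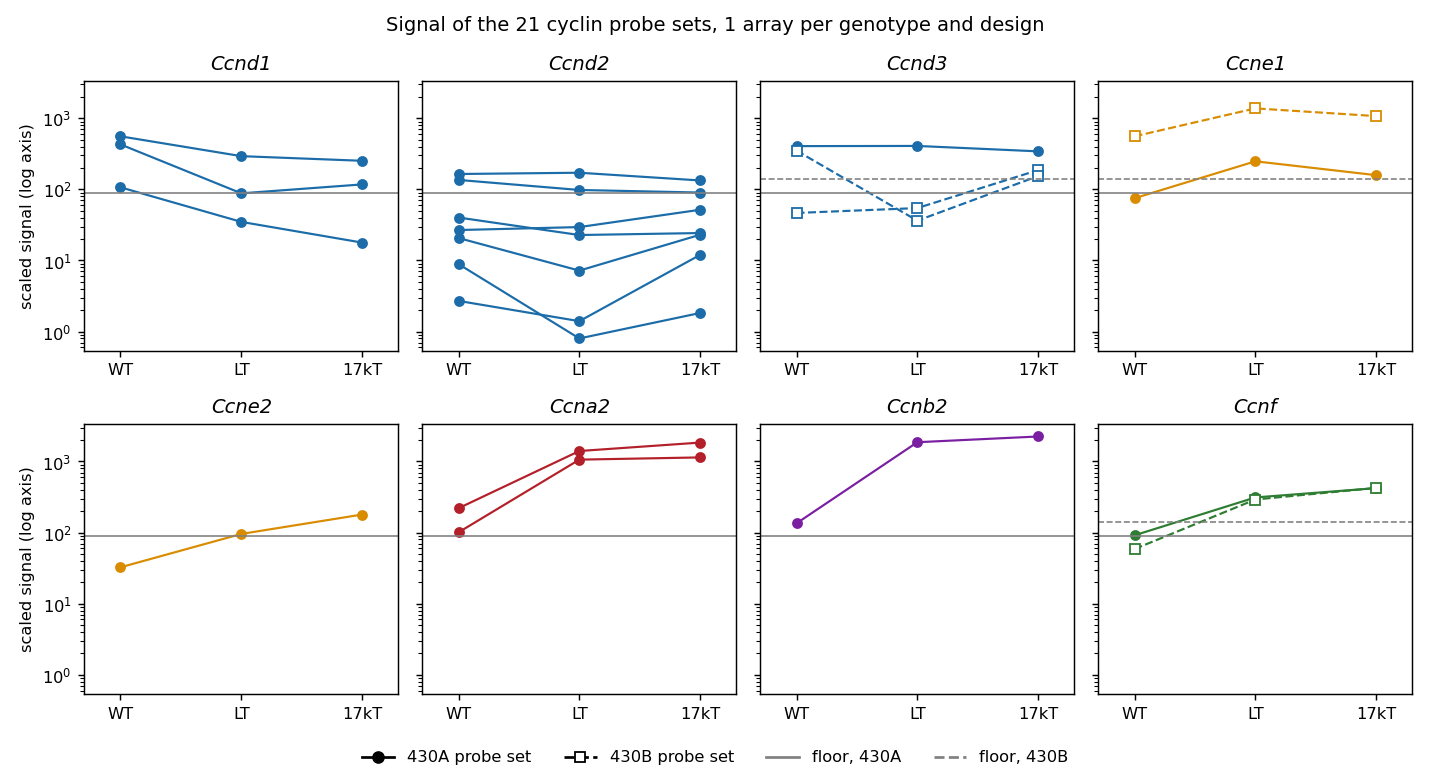
Scaled signal (log axis) of each of the 21 cyclin probe sets in WT, LT and 17kT liver, 1 panel per gene, with 430A probe sets as filled circles, 430B probe sets as open squares and grey lines at the floor of each design. Ccna2, Ccnb2 and Ccnf lie higher in both transgenic livers than in WT, all 3 Ccnd1 probe sets lie lower, and 5 of 7 Ccnd2 probe sets stay under the floor on every array.

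Ccnb2, which encodes cyclin B2, a CDK1 partner of mitosis, had the largest difference of the set. Its probe set 1450920_at gave 135 in WT, 1868 in LT and 2248 in 17kT. Both transgenic livers were far above WT, by 13.8-fold in LT (log2 ratio 3.79) and 16.7-fold in 17kT (4.06). Of 25762 probe sets measured in LT against WT, 19 had a larger ratio, and of 26556 in 17kT against WT, 10 had. LT and 17kT differed by a log2 ratio of -0.27, close to the technical spread. When the floor was raised to the 75th percentile, above the WT value, the log2 ratios to WT were at least 2.75 in LT and at least 3.01 in 17kT.

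Ccna2 encodes cyclin A2, which works in S phase and again in G2. Probe set 1417910_at gave 220 in WT, 1405 in LT and 1846 in 17kT. Probe set 1417911_at gave 101, just above the floor, in WT, 1062 in LT and 1141 in 17kT. Both probe sets ordered the livers as WT, LT, 17kT. The first was 6.38-fold higher in LT and 8.39-fold in 17kT, the second 10.5-fold and 11.3-fold. The step from LT to 17kT was small on both, with log2 ratios of LT over 17kT of -0.39 and -0.10, and the second of these is within the technical spread.

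Ccnf, the gene of cyclin F, was seen by a probe set on each design. On 430A, 1422513_at gave 91.6 in WT, which is close to the floor, 312 in LT and 422 in 17kT. On 430B, 1443807_x_at gave 58.7 in WT, under the floor, 292 in LT and 425 in 17kT. The designs thus gave the same order of genotypes. On 430A Ccnf was 3.41-fold higher in LT and 4.61-fold in 17kT, and on 430B at least 2.08-fold and at least 3.03-fold. With WT so close to the floor, these folds depend on it: placed at the 75th percentile, it left log2 ratios of 0.17 and 0.60 on 430A. LT over 17kT was -0.43 on 430A and -0.54 on 430B.

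The sequences around the starts of Ccnb2 and Ccnf are shown because these genes were higher together and both windows hold 2 elements known from genes of the late cell cycle. CCAAT boxes, the letters CCAAT, bind the factor NF-Y, and the CHR element, TTTGAA, is the site of the MuvB complex that represses or activates such genes with its partners. RefSeq (GRCm38.p6) gave windows of 300 bases for 4 of the 8 genes, from 250 bases before the annotated start to 50 after it, and both strands were searched. Printed are 250 bases before and 25 after the start, 5′ to 3′ on the strand of the gene, for Ccnb2 at chr9:70421530-70421804 on the minus strand and Ccnf at chr17:24251385-24251659 on the minus strand. Ccne1, at chr7:38107466-38107740 on the minus strand, is shown beside them as a cyclin of the entry to S phase. Capitals mark CCAAT and TTTGAA.
Ccnb2: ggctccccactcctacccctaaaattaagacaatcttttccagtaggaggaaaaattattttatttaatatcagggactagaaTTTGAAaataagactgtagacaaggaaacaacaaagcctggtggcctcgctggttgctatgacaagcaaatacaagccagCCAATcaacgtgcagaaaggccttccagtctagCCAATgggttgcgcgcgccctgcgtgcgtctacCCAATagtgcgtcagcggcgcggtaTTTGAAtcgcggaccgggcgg
Ccnf: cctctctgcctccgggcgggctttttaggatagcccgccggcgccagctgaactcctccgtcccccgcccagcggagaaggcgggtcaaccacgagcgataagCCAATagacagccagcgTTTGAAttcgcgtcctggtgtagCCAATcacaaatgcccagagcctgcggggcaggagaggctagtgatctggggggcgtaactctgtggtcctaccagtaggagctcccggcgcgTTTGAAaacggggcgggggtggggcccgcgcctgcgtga
Ccne1: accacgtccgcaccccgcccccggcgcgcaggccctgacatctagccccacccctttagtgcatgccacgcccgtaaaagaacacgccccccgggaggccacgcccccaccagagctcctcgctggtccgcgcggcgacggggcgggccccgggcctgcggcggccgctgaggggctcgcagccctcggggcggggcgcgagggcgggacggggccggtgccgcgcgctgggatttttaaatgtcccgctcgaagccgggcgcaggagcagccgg

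The Ccnb2 window held 3 CCAAT boxes, beginning 87, 54 and 21 bases before the start, and 2 TTTGAA matches, beginning 167 bases before and 5 bases after it. The Ccnf window held 2 CCAAT boxes, at 147 and 107 bases before the start, and 2 TTTGAA matches, at 130 and 14 bases before. Ccne1 had 0 of either, and had 4 matches to the GC box GGGCGG. The Ccnb2 window held 1 match to GGGCGG, the Ccnf window 3 and each Ccnd3 window 2. Of 2 start sites listed for Ccnd3, 1 held 1 CCAAT box and the other 0, and both held 0 TTTGAA. Of all 32851 windows, 37.4% held CCAAT, 17.9% TTTGAA, 6.95% both and 35.7% GGGCGG. At least 3 CCAAT boxes stood in 3.37% of windows, at least 2 CCAAT boxes in 11.7% and at least 2 TTTGAA matches in 2.31%. The E2F words TTTCCCGC, TTTCGCGC, TTTGCCGC and TTTGGCGC, on either strand, had 0 matches in the 5 windows of these genes and were found in 2.26% of all windows. No matches of different motifs overlapped in these 5 windows. These are matches of letters, and binding was not measured.

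**Figure D2:**
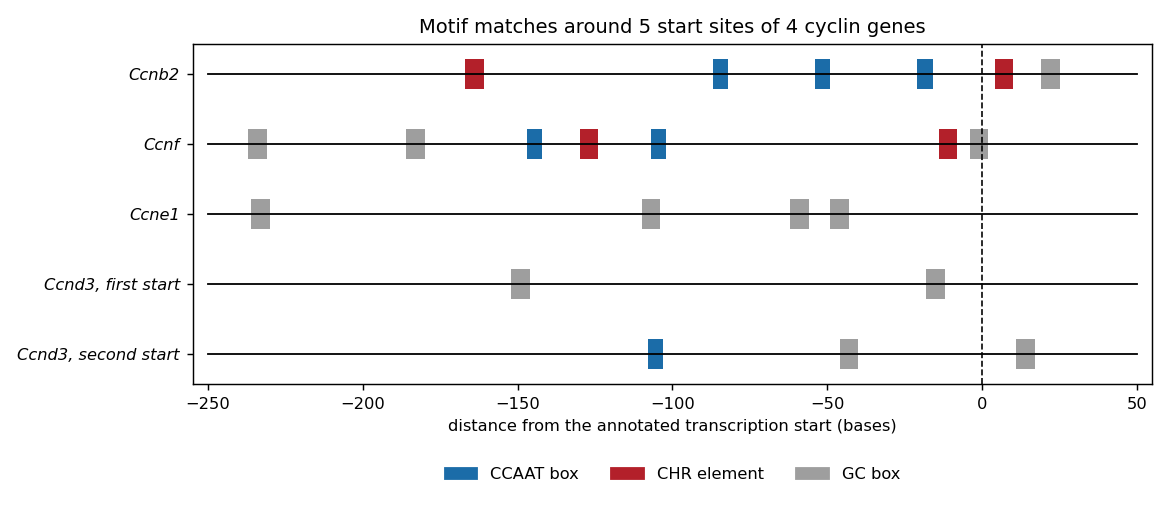
Matches to CCAAT (blue), TTTGAA (CHR element, red) and GGGCGG (GC box, grey) on either strand, by distance in bases from the annotated transcription start (dashed line), in the 5 windows available for 4 of the cyclin genes. Ccnb2 and Ccnf carry blue, red and grey matches, and Ccne1 and the first Ccnd3 start carry grey ones only.

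The E-type cyclins partner CDK2 at the entry to S phase, and neither gene reached the 2-fold rule in 17kT with the floor used. For Ccne1, 1416492_at on 430A gave 75.1 in WT, under the floor, 248 in LT and 158 in 17kT. On 430B, 1441910_x_at gave 558 in WT, 1379 in LT and 1074 in 17kT. Both probe sets placed LT highest and WT lowest. The 430A probe set was at least 2.75-fold higher in LT and at least 1.75-fold in 17kT, and the 430B one 2.47-fold and 1.93-fold, so that Ccne1 passed the rule in LT on both designs and in 17kT on neither. The 17kT value on 430B, a log2 ratio of 0.95, lies just outside the rule.

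LT over 17kT for Ccne1 was 0.65 on 430A and 0.36 on 430B, neither of them past the rule. Ccne2 went the other way between the transgenic livers. Its 1 probe set, 1422535_at, gave 32.5 in WT, 95.7 in LT and 179 in 17kT. WT was well under the floor and LT just above it. The bound on the log2 ratio was at least 0.08 in LT and at least 0.99 in 17kT, just short of the rule, and a lower floor, the 25th percentile, gave 1.56 and 2.47. The log2 ratio of LT over 17kT was -0.91, with both arrays above the floor.

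Among the D-type genes, Ccnd1, whose product cyclin D1 is the main D-type cyclin of regenerating liver, was lower in both transgenic livers. Probe set 1448698_at gave 558 in WT, 293 in LT and 252 in 17kT. Probe set 1417420_at gave 429 in WT, 88.0 in LT, under the floor, and 117 in 17kT. Probe set 1417419_at gave 107 in WT, 34.9 in LT and 17.8 in 17kT, with both transgenic arrays under the floor. WT was highest on all 3 probe sets. The log2 ratios of the first were -0.93 in LT, just outside the rule, and -1.14 in 17kT. The second was at least 4.75-fold lower in LT and 3.65-fold lower in 17kT. The third, bounded by the floor, had a log2 ratio of -0.24 or lower in both. The sign held for the first under the 6 scalings tried, from -1.18 to -0.45 in LT and from -1.38 to -0.43 in 17kT.

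Ccnd2 encodes cyclin D2, and its transcript was at or near the floor in all 3 livers. Of 7 probe sets, 5 lay under the floor on all 3 arrays, with signals from 0.80 to 51.7. The brightest, 1416122_at, gave 165 in WT, 172 in LT and 134 in 17kT, and 1434745_at gave 136, 98.1 and 90.3, the last of them just under the floor. The genotypes lay close together on both. The log2 ratios of the first were 0.06 in LT and -0.30 in 17kT, and those of the second -0.47 and -0.59 or lower. No Ccnd2 probe set passed the rule, and the sign of 1416122_at turned with the scaling, from -0.19 to 0.53 in LT and from -0.54 to 0.41 in 17kT.

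Ccnd3, the gene of cyclin D3, gave probe sets that disagreed. On 430A, 1415907_at gave 406 in WT, 408 in LT and 343 in 17kT, 3 like levels. Its log2 ratios were 0.01 in LT and -0.24 in 17kT, within the technical spread, with signs that turned under some scalings. On 430B, 1444323_at gave 351 in WT, 36.3 in LT, under the floor, and 154 in 17kT. It was at least 2.50-fold lower in LT and 2.28-fold lower in 17kT. The other 430B probe set, 1438805_at, gave 46.6 in WT, 54.6 in LT and 187 in 17kT and was above the floor in 17kT alone. The parts of the transcript that these probe sets bind were not examined here. Ccnd3 is therefore not described by 1 direction.

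**Figure D3:**
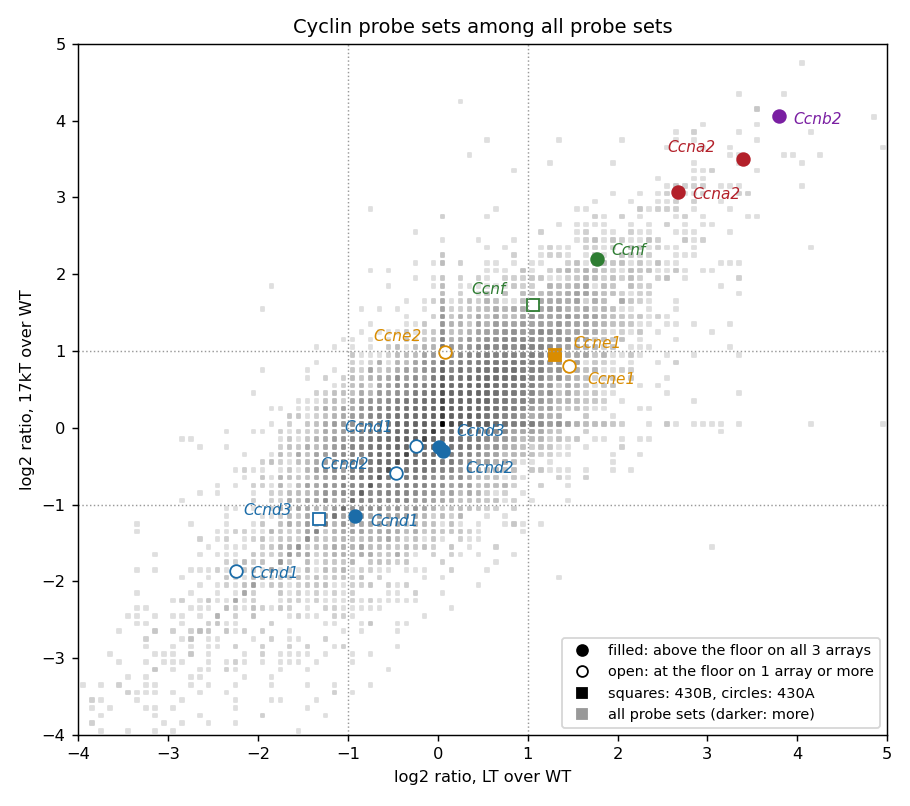
Log2 ratio of LT over WT (x) against that of 17kT over WT (y) for the 15 cyclin probe sets with a direction in both, over the density of all probe sets in grey. Circles are 430A and squares 430B, open symbols lay at the floor on at least 1 array, and dotted lines mark the 2-fold rule. Ccnb2 and Ccna2 sit at the upper right at values from 2.67 to 4.06, and the D-type probe sets at or below 0.06 on both axes.

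LT and 17kT livers were compared directly. The comparison does not isolate the p53-binding region, since the fluidics station differed too and the levels of the viral proteins were not compared here. Of 15 cyclin probe sets measured, 0 were higher and 0 lower by 2-fold, beside 4.00% and 4.57% of all probe sets. With the floor lowered to the 25th percentile, 2 were lower in LT. The 5 probe sets of Ccna2, Ccnb2 and Ccnf had log2 ratios of LT over 17kT from -0.54 to -0.10, and the 2 of Ccne1 0.36 and 0.65. With 1 array each, this does not show that levels are equal. For the 100 probe sets on both designs the median ratio on 430A lay below that on 430B by 0.36 in this comparison, which is about the size of these differences. Among genes that act with cyclins, CDK partners had 1 of 12 higher and 0 lower in LT than in 17kT, and CDK brakes 0 of 8 higher and 1 lower, Cdkn1a (log2 ratio -1.74), beside 4.47% and 4.23% of all genes.

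Genes with the most similar pair of log2 ratios to each cyclin were sought among 5675 other genes above the floor on all 3 430A arrays, by Euclidean distance over the 2 ratios to WT, which come from 3 arrays. Nearest to Ccna2 were Pclaf (distance 0.01), Cdt1 (0.04) and Ube2s (0.06). Pclaf binds the replication clamp and Cdt1 licenses replication origins. Nearest to Ccnb2 were D17H6S56E-5 (0.23), Tubb6 (0.25) and Top2a (0.27), and nearest to Ccnf were Racgap1 (0.07), Cdc25b (0.12) and Lig1 (0.14). Ccnd1 had Enpep (0.02), Tm4sf1 (0.03) and Pcyt2 (0.03) nearest. Ccnd2 had Ammecr1l, Atp5e and Oxr1, and Ccnd3 had Snx1, Rfng and Galm, at distances up to 0.02. Ccne1 and Ccne2 were left out, since their representative probe sets lay under the floor in WT.

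The genes that act with the cyclins were taken from lists, with 1 probe set per gene, and read beside 11.1% of genes higher and 9.01% lower in LT against WT, and 9.97% and 8.64% in 17kT against WT. The median log2 ratio of all genes was 0.02 in LT and 0.07 in 17kT. Of 12 CDK partners and activators, 7 were higher and 0 lower in LT (median 1.55), and 7 were higher and 1 lower in 17kT (median 1.58). Cdk1, the partner of cyclins A2 and B2, gave 303 in WT, 2288 in LT and 2524 in 17kT and was 7.55-fold and 8.32-fold higher. Cdk2, the partner of cyclin E, was 3.24-fold and 3.73-fold higher. Of the D-type partners, Cdk4 was 3.37-fold and 2.69-fold higher, while Cdk6 had a log2 ratio of -0.24 in LT and was 2.38-fold lower in 17kT. The CDK adaptor genes Cks1b (4.02-fold and 4.07-fold) and Cks2 (3.97-fold and 3.40-fold) and the activating phosphatase gene Cdc25b (3.37-fold and 4.24-fold) were higher too.

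Of 8 CDK brakes measured in LT against WT, 5 were higher and 0 lower (median 1.41), and all 7 measured in 17kT were higher (median 1.84 to 2.71 under the scalings). Cdkn1a, the p53 target that encodes p21, was 4.11-fold higher in LT and 13.7-fold in 17kT. Cdkn2c, which encodes the CDK4 and CDK6 inhibitor p18, was 3.98-fold and 5.46-fold higher. Cdkn3, the gene of a phosphatase that acts on CDKs, was 4.04-fold and 6.89-fold higher, and Pkmyt1, of a kinase that restrains CDK1, was 2.74-fold and 4.00-fold higher. Cdkn2a and Cdkn2b lay under the floor on every array. Cdkn1b and Cdkn2d, with 46.1 and 47.5 in WT, lay under the floor there and could not be called lower. Cdkn1c, with 28.1 in WT and 66.6 in 17kT, was under the floor in both and is not among the 7.

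Of 13 pocket protein, E2F and DP genes, 5 were higher and 0 lower in LT (median 0.81, and 0.35 to 1.11 under the scalings), and 7 were higher and 0 lower in 17kT (median 1.08). Rbl1, the gene of the pocket protein p107, was 3.88-fold and 5.40-fold higher, E2f2 2.89-fold and 3.39-fold, E2f8 at least 3.77-fold and at least 5.01-fold, and the DP partner gene Tfdp1 4.38-fold and 2.87-fold. A second, dimmer probe set of Rbl1 had a log2 ratio of -0.08 in LT. E2f1 was counted as higher in LT too, and a dimmer probe set of it had a log2 ratio of 0.13. Of 8 genes of the MuvB complex, B-Myb family and FoxM1, which act on promoters of mitotic genes, 3 were higher and 0 lower in each comparison (medians 0.28 and 0.42). These were Lin54, whose product contacts the CHR element (at least 7.54-fold and at least 4.15-fold), Mybl1 (at least 3.86-fold and at least 2.91-fold) and Foxm1 (2.56-fold and 3.23-fold). Lin52 had log2 ratios of -0.60 and 0.27.

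Cyclin F marks several proteins for destruction, and all 7 genes listed for its targets were higher in both livers (medians 1.38 in LT and 2.02 in 17kT). They included Rrm2, of ribonucleotide reductase (7.01-fold and 14.4-fold), Nusap1, of the spindle (6.85-fold and 9.10-fold), Cdc6, of origin licensing (at least 2.68-fold and at least 4.05-fold), and Ccp110, of the centriole (2.60-fold and 4.09-fold). E2f1, also among the 7, was counted from its brightest probe set, and another had a log2 ratio of 0.13 in LT, under the rule. Cdc6, Exo1 and E2f1 gave 4.30, 52.4 and 82.7 in WT, under the floor, and could not be called lower. Of 25 measured genes for the destruction of cyclins, 10 were higher and 0 lower in LT (median 0.69), and 8 were higher and 0 lower in 17kT (median 0.78). Anapc4, Usp37 and Cdc27 were counted as higher in LT, and other probe sets of them had log2 ratios of 0.09, 0.24 and 0.41. Anapc7 was counted as neither, and another probe set of it had -0.999. Ube2c, the conjugating enzyme that starts ubiquitin chains on cyclin B, was 14.3-fold and 11.8-fold higher, its partner Ube2s 6.18-fold and 8.65-fold, the activator Cdc20 7.54-fold and 9.13-fold, and the inhibitor Fbxo5 at least 6.91-fold and at least 4.22-fold.

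Of 13 measured signals upstream of the D cyclins, 3 were higher and 1 lower in LT (median 0.49), and 1 was higher and 1 lower in 17kT (median 0.15, and -0.08 to 0.33 under the scalings). The growth factor receptor gene Egfr gave 7759 in WT, 2397 in LT and 1451 in 17kT and was 3.24-fold and 5.35-fold lower, while its 6 measured probe sets ranged from -1.79 to -0.01 in LT on the log2 scale. Jun was 2.67-fold and 3.37-fold higher. Myc gave 42.5 in WT, under the floor, 181 in LT and 133 in 17kT, and its bound passed the rule in LT and was a log2 ratio of at least 0.56 in 17kT. Creb1 was 2.66-fold higher in LT with a log2 ratio of -0.23 in 17kT. The other measured probe set of Creb1 had a log2 ratio of 0.61 in LT, under the rule.

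Of 12 measured cyclins outside the set, 2 were higher and 1 lower in LT (median 0.27, and -0.10 to 0.59 under the scalings), and 1 was higher and 0 lower in 17kT (median 0.29). Ccnh, of the kinase that activates CDKs, was 2.14-fold higher in LT with a log2 ratio of 0.93 in 17kT. Ccnt2, of a transcription elongation factor, was 2.04-fold higher in LT with a log2 ratio of 0.31 in 17kT. Ccnc, of the Mediator kinase, was at least 2.34-fold lower in LT with a log2 ratio of -0.98 in 17kT. Ccng1, a p53 target, had a log2 ratio of -0.94 in LT and was 2.17-fold higher in 17kT, and its ratio of LT over 17kT was -2.06. Other probe sets of these genes disagreed with those shown in LT against WT: log2 ratios reached 0.46 for Ccnc, -0.31 for Ccnh, -0.45 for Ccnt2 and 0.64 for Ccng1. Ccnb1 was not analysed here.

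**Figure D4:**
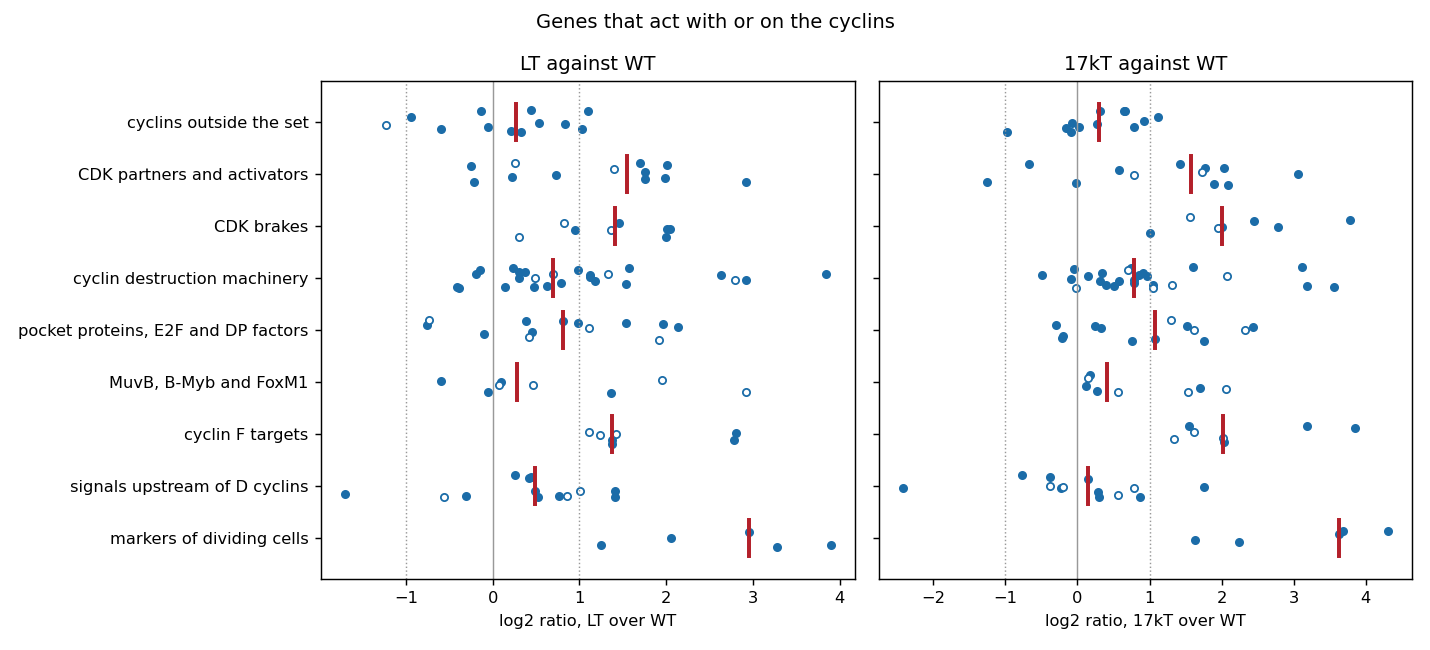
Log2 ratio of each measured gene (points, open where the gene lay at the floor on 1 array) and the median of each list (red bars), for LT over WT on the left and 17kT over WT on the right. Dotted lines mark the 2-fold rule, and the medians of markers of dividing cells lie farthest right, at 2.96 and 3.62.

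All 5 markers of dividing cells were higher in both livers, with medians of 2.96 in LT and 3.62 in 17kT. Top2a was 14.9-fold and 19.8-fold higher, Mki67 9.72-fold and 12.3-fold, Mcm2 7.78-fold and 12.9-fold, and Pcna 4.16-fold and 4.75-fold. In LT the lowest ratio among the probe sets of a gene was smaller for Top2a (log2 ratio 0.63), Foxm1 (0.41) and Pkmyt1 (0.56). Markers of other cell types are given by their summed signals in WT, LT and 17kT. The 10 macrophage markers were above the floor on all 3 arrays with 0 past the rule, and their sum was 14188, 12730 and 15268. Of 9 endothelial genes on 430A, 8 were above the floor in each liver (summed signal 3869, 2730 and 3479), and of 9 stellate and matrix genes 8, 6 and 6 (6351, 4390 and 6298). Of 7 bile duct genes, 0, 2 and 1 were above it (306, 1265 and 315), with Krt7, Krt19, Epcam, Sox9 and Cftr under it in each and Prom1 and Cd24a at least 6.09-fold and at least 6.03-fold higher in LT than in WT, although another probe set of Cd24a had a log2 ratio of 0.29. Of 6 B cell genes 3, 3 and 4 were above it (1777, 913 and 935), of 8 T and NK genes 1, 0 and 0 (360, 380 and 331), of 7 neutrophil genes 1, 5 and 3 (1125, 2607 and 2000.2), and of 5 erythroid genes 3, 2 and 2 (2091, 403 and 482). Most of the neutrophil sum was Lcn2, with 749 in WT, 1858 in LT and 1542 in 17kT. Most of the erythroid sum in WT was Alas2, with 1742 in WT, 124 in LT and 141 in 17kT. Epor gave 131, 156 and 202, and the median log2 ratio of the erythroid list was -0.03 in both comparisons with WT. The part of these cells in the cyclin differences was not tested.

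**Figure D5:**
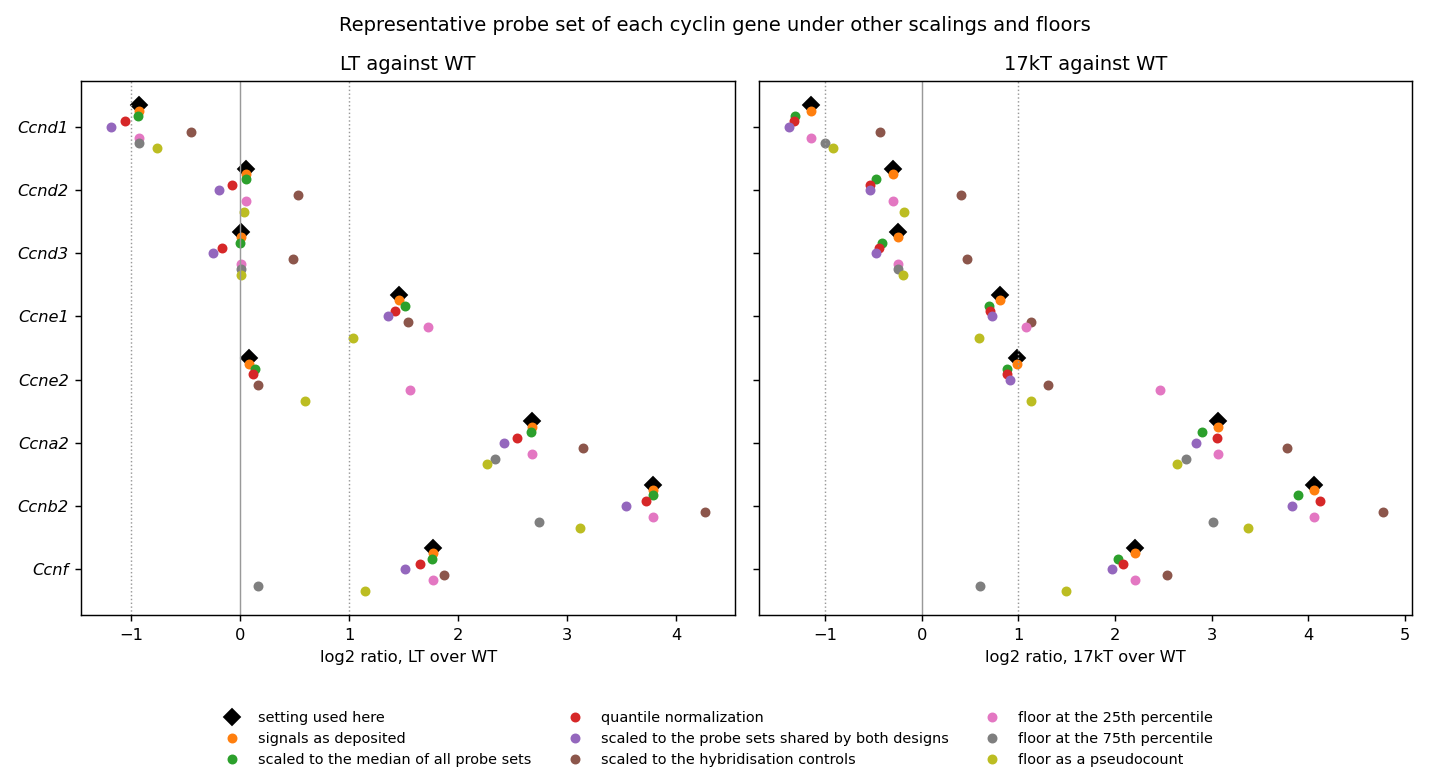
Log2 ratio of the representative probe set of each cyclin gene for LT over WT (left) and 17kT over WT (right) in the setting used here (black diamonds) and under 5 other scalings and 3 other treatments of the floor (coloured points). Ccna2 and Ccnb2 stay above 2 and Ccnd1 below 0 in each setting shown, while Ccnd2 and Ccnd3 fall on both sides of 0.

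Under the 6 scalings the median of all genes ranged from -0.27 to 0.40 in LT and from -0.06 to 0.40 in 17kT, with the highest values under scaling to the hybridisation controls. The log2 ratio of Ccnb2 ranged from 3.54 to 4.27 in LT and from 3.82 to 4.77 in 17kT, that of Ccna2 from 2.42 to 3.15 and from 2.84 to 3.78, and that of Ccnf from 1.52 to 1.87 and from 1.97 to 2.54.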

How the data were processed

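Linear signal intensities of probe sets were deposited by the authors, who made them with MAS5 per the submitters' processing notes. No source used here gives its version. The authors had scaled each array, since its 2% trimmed mean was between 250.03 and 250.12. The deposited array settings files hold other entries, of which the fluidics station was used. Gene names came from the platform annotation: of 22690 on 430A and 22575 on 430B, 20393 and 14674 had 1 gene symbol. Symbols were updated by gene identifier through RefSeq (GRCm38.p6). Ratios were taken within a design. A listed gene was read from its brightest probe set relative to the floor, using _x_at probe sets only where a gene had no other. Each list gives by name the 4 members with the largest ratio to WT. The marker genes were named outside this rule after their values were seen. So were Cdk2, Cdk4, Cdk6, Cdkn1b, Cdkn1c, Cdkn2a, Cdkn2b, Cdkn2d, E2f1, Exo1, Anapc4, Anapc7, Cdc27 and Usp37. The members, lists and rules were chosen with earlier results of these data known. Code was tested on simulated data. Python 3.11.15 with numpy 2.4.6 and pandas 2.3.3 was used. The alternatives were 5 scalings, 3 floors, folds of 3 and 1.5, fewer kinds of probe set, each design alone and the mean over probe sets. Precision is limited by the number of arrays.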

Additional observations from a re-analysis of the deposited data

How the results depend on the processing

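No paired analysis was possible because each genotype gave 1 array per design. The 6 counts of cyclin probe sets were recomputed under the alternatives, and 59 of 78 such values stayed within 1.5 times the one reported. In LT against WT, 7 higher and 2 lower became 4 and 0 when the floor was the 75th percentile, 4 and 1 with a 3-fold rule, and 2 and 1 on the 430B design alone, and the lower count became 1 on 430A alone. In 17kT against WT, 5 higher and 3 lower became 3 and 1 when the floor was the 75th percentile and 1 and 1 on 430B alone. The higher count became 8 when the floor was the 25th percentile and 8 with a 1.5-fold rule, and the lower count 1 with the floor as a pseudocount and 1 with a 3-fold rule. In LT against 17kT, 0 and 0 became 1 and 1 with a 1.5-fold rule, and the lower count became 2 when the floor was the 25th percentile and 1 when scaled to the hybridisation controls. Fewer probe sets on 430B and the changed thresholds account for counts by construction. So does the pseudocount, which makes ratios of signals above the floor smaller in size. Under the scalings the log2 ratio of LT over 17kT for Ccne2 reached -1.14, past the rule. The cause of the difference between scalings was not tested. Against WT, Ccnd1, Ccne1, Ccne2, Ccna2, Ccnb2 and Ccnf kept their sign under every alternative that gave a value, while Ccnd2 kept it under 7 of 10 in LT and 9 of 10 in 17kT, and Ccnd3 under 8 of 12 and 11 of 12. Of 263 values of single cyclin genes, 213 moved by less than the technical spread. Signals near the floor limit Ccne2, Ccnd2, the WT level of Ccnf and 2 of 3 Ccnd1 probe sets.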
